A study of Gallus gallus with 6 samples.

Results

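The genes described here are 6 regulators that pattern the midbrain, the isthmus and the hindbrain, namely EN1, EN2, PAX2, PAX5, GBX2 and EGR2. They were taken as listed and found in the data by their chicken RefSeq symbol and NCBI gene number. Of the 6, 5 were measured, among 24098 genes in all, and EGR2 was not analysed here because the gene table used matched no identifier to that symbol. Whole chicken embryos (Gallus gallus) labelled Hamburger-Hamilton stage 10 were studied by RNA sequencing. At that stage the brain vesicles and the rhombomeres, the segments of the hindbrain, are forming. The 3 treated libraries come from embryos given zinc oxide nanoparticles (ZnO 1, 2 and 3) and the 3 others from embryos labelled control (control 1, 2 and 3). The labels name no dose, route, length of exposure, strain or sex, and do not say whether a library is 1 embryo or a pool, so the p-values measure the spread between these libraries, which may be technical. The stage labels also carry a window of hours, which starts at 34 hours in every library. It ends at 42, 43 and 44 hours for ZnO 1, 2 and 3, and at 39, 40 and 41 hours for control 1, 2 and 3. The ends rise in the order in which the samples are listed, controls first. If these hours are ages, age and treatment cannot be told apart.

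The isthmus is the constriction between midbrain and hindbrain, and it acts as a signalling centre for both. It forms where OTX2, made in the forebrain and midbrain, meets GBX2, made in the anterior hindbrain, and each of these homeodomain proteins represses the gene of the other. PAX2, PAX5, EN1 and EN2 are transcription factor genes switched on around that border, where the secreted factors FGF8 and WNT1 are made, and together they keep each other active. Behind it, EGR2 marks rhombomeres 3 and 5, and HOX genes give each rhombomere its position.

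Levels are the authors' deposited values, which behave as FPKM, that is, reads corrected for both the length of a gene and how deeply the library was sequenced. Depth, computed from the steps between values, was 18271504 to 18940736 reads in the treated libraries and 18208501 to 19843561 in the controls. Tests were made with limma on log2(FPKM + 1) for genes that averaged 1 FPKM or more, and adjusted p-values follow Benjamini-Hochberg over all 13311 genes tested. The libraries did not group by treatment along their main axis of difference. The leading principal component held 50.8% of the variance. It placed ZnO 1 at -36.3, ZnO 2 at 17.5 and ZnO 3 at 28.9. Control 1 was at -2.61, control 2 at -23.4 and control 3 at 16. The groups were apart on the next component, which held 20.6% of the variance. It placed ZnO 1, 2 and 3 at -20.3, -6.83 and -15.8. Control 1, 2 and 3 were at 13.3, 15.3 and 14.4. Markers of heart, somite, blood, forebrain, crest and tail were detected, and 0 of the marker lists had a measured gene at 0 FPKM in every library. That is a weak criterion, since 1 read in 1 library meets it. MSGN1 of the tail, for example, had 1 read in ZnO 1 and 3 in control 2. In a whole embryo, fewer cells of a type and less RNA per cell cannot be told apart.

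No patterning gene passed the adjusted test between treated and control embryos, which does not show that their levels were equal. Over all genes, 0 of 13311 (0.0%) had an adjusted p under 0.05, and 754 (5.66%) had an unadjusted p under 0.05, 407 of them higher and 347 lower in treated embryos. With the libraries scaled to the same sum, that split was 608 higher and 209 lower. limma-voom on reads recovered from the FPKM steps also called 0 genes, with 743 at an unadjusted p under 0.05. Of the 4 patterning genes that passed the filter, 3 had a higher and 1 a lower mean log2 level in treated embryos. PAX2 was the 1 member of the 4 with an unadjusted p under 0.05. Groups that did not overlap were found for 0 of the 4, beside 11.5% of all genes tested. The median log2 fold change of the 4 was 0.14, beside -0.03 over all genes tested.

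The members stood at very different levels. GBX2 was the most abundant, at 50.9 ± 15.7 FPKM (SD over 6 libraries), and it was above PAX2 in 6 of 6 libraries. PAX2 at 10.3 ± 2.50 FPKM and EN2 at 9.77 ± 3.82 FPKM followed, and PAX2 was above EN2 in 3 of 6 libraries, so their order is within the spread (exact sign-flip test over 6 libraries, two-sided, adjusted p = 0.688 over 4 neighbouring pairs). EN1 came next at 6.38 ± 1.79 FPKM, below EN2 and below PAX2 in 6 of 6 libraries. PAX5 was lowest at 0.604 ± 0.344 FPKM. The steps between GBX2 and PAX2, EN2 and EN1, and EN1 and PAX5 each had an adjusted p of 0.0416 in the same exact test. The raw p of 0.0312 is the smallest it can give. The neighbouring pairs were set by the means of these same libraries, so this p says no more than the count of libraries in that order. Such an order rests on the gene models. The length behind the FPKM was 2208 bp for EN1 and 870 bp for EN2. In reads, EN1 was above EN2 in every library, so EN2 ranks higher only through its shorter model. The distance between these genes would change with another model, and their order could.

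**Figure D1:**
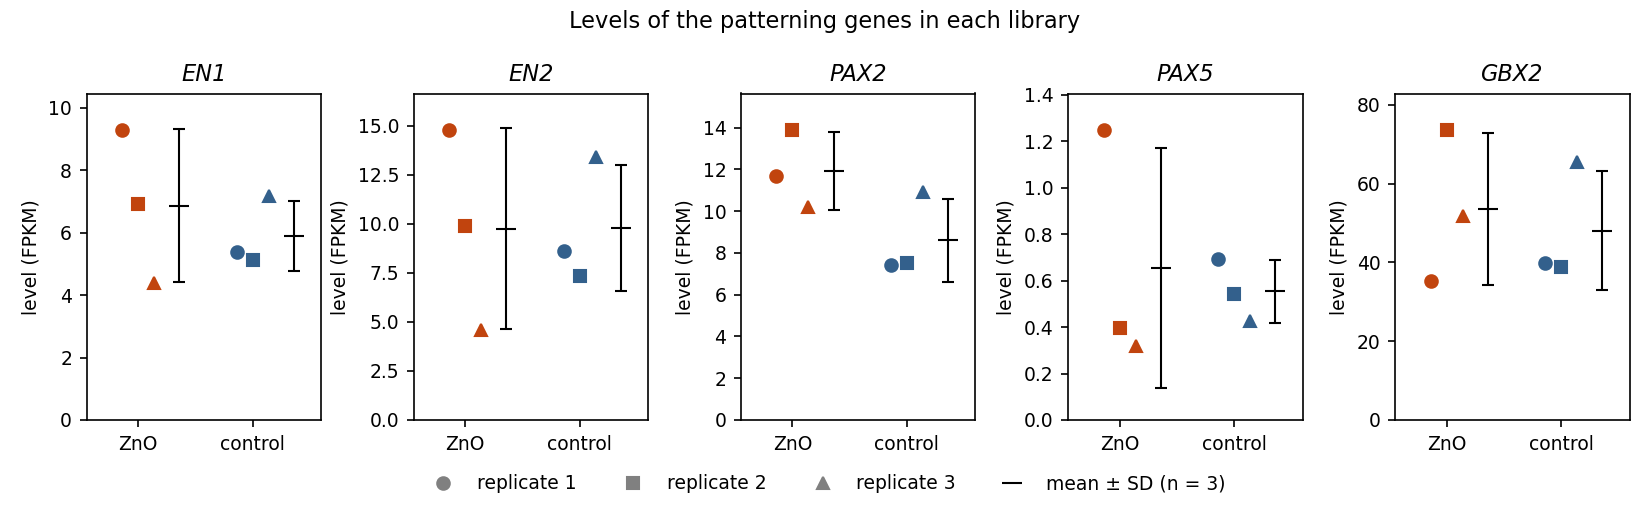
Level of each patterning gene in FPKM (vertical axes, each from 0) in the ZnO and control libraries, with the symbol giving the replicate and the bar the mean ± SD of 3 libraries. The groups overlap for all 5 genes, and the treated libraries are spread at least as widely as the controls for EN1, EN2, PAX5 and GBX2.

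EN1 and EN2 encode the Engrailed homeodomain repressors, which keep midbrain and anterior hindbrain identity and later grade the tectum. EN1 had 9.30, 6.91 and 4.40 FPKM in ZnO 1, 2 and 3, against 5.37, 5.12 and 7.19 FPKM in control 1, 2 and 3. The treated libraries held both the highest and the lowest value, with every control between them. The log2 fold change was 0.15 ± 0.25 SE, with a 95% interval of -0.41 to 0.72 and an adjusted p of 0.975 (limma). Without ZnO 1 it was -0.07.

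EN2 had 14.8, 9.89 and 4.59 FPKM in ZnO 1, 2 and 3, against 8.60, 7.32 and 13.4 FPKM in control 1, 2 and 3. As with EN1, ZnO 1 was the highest and ZnO 3 the lowest of all libraries, a 3.24-fold span. The log2 fold change was -0.08 ± 0.37 SE with an interval of -0.94 to 0.78 (limma, adjusted p = 0.986), and it was 0.33 without ZnO 3 and 0.14 without control 3. EN2 rested on 74 to 236 reads per library and EN1 on 180 to 375.

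Both Engrailed genes placed the libraries in the same order, which was ZnO 1, control 3, ZnO 2, control 1, control 2 and ZnO 3 from high to low. Log2 ratios between genes were taken on FPKM + 1. That of EN1 to EN2 was -0.62, -0.46 and -0.05 in ZnO 1, 2 and 3, against -0.59, -0.44 and -0.81 in control 1, 2 and 3. EN1 was thus closest to EN2 in ZnO 3, where both were lowest. The mean ratio was 0.24 higher in treated embryos (exact two-sided permutation test, p = 0.5, adjusted p = 0.7 over the 3 ratios tested, with 0.1 the smallest p that 3 against 3 libraries allow).

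PAX2 encodes a paired-domain factor that is among the earliest of the isthmus and is also used in the optic stalk, the otic placode and the early kidney. It had 11.7, 13.9 and 10.2 FPKM in ZnO 1, 2 and 3, against 7.40, 7.50 and 10.9 FPKM in control 1, 2 and 3. Control 1 and control 2 were below every treated library, while control 3 was above ZnO 3. The mean was 11.9 ± 1.85 FPKM in treated embryos and 8.61 ± 2.02 FPKM in controls (SD, n = 3 each), a 1.38-fold difference. The log2 fold change was 0.44 ± 0.19 SE, with an interval of 0.002 to 0.87, an unadjusted p of 0.0492 and an adjusted p of 0.881 (limma). It kept its sign under each of the alternatives run, at 0.33 to 0.60 when 1 library at a time was left out, and its adjusted p stayed between 0.122 and 1.0. Every library had at least 553 PAX2 reads.

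PAX2 is made in several tissues, and in the marker lists of the neural tube, the otic region and the forebrain with the eye field more genes had higher than lower means in treated embryos. Of 10 tested genes of the whole neural tube, 6 had higher and 4 lower means in treated embryos, 0 passed, and the median log2 fold change was 0.36. SOX2, SOX3 and SOX21, 3 of the 10, had an unadjusted p under 0.05 and higher means, beside 3.06% of all genes tested. The 4 with lower means were CDH2, ZIC1, NCAM1 and NES. The log2 fold changes of CDH2, ZIC1 and NCAM1 were -0.22, -0.15 and -0.11. All 10 genes of the list together summed to 367 to 497 FPKM in treated embryos and 342 to 405 FPKM in controls. SOX2, a gene of neural progenitors, had 17.2, 17.6 and 13.4 FPKM in ZnO 1, 2 and 3, against 10.1, 7.33 and 14.0 FPKM in control 1, 2 and 3. As for PAX2, control 3 was the one control within the treated range. Relative to the mean log2 level of the neural tube list, the PAX2 difference was 0.16 (exact permutation test, p = 0.5, n = 3 each).

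The otic and placode list had 10 genes tested, 9 with higher and 1 with lower means, 0 past the threshold, and a median log2 fold change of 0.17. It summed to 204 to 251 FPKM in treated embryos and 171 to 239 FPKM in controls. DLX6, a placode and arch gene, had the smallest unadjusted p of that list (log2 fold change 0.61 ± 0.21 SE, limma, adjusted p = 0.827). OC90 and FOXI1 of that list stayed at or below 0.024 FPKM. The intermediate mesoderm list, which covers the early kidney, had 3 of 8 genes higher and 5 lower, 0 past the threshold, with sums of 72.3 to 105 FPKM in treated embryos and 81.2 to 93.3 FPKM in controls. In it all treated libraries were below all controls for OSR1 and above them for OSR2 and LHX1. These relations held for 5.89% and 5.6% of all genes tested. The log2 fold changes of OSR1, OSR2 and LHX1 were -0.60 ± 0.17, 0.37 ± 0.15 and 0.25 ± 0.14 SE (limma, adjusted p = 0.801, 0.863 and 0.943). The forebrain and eye field list had 9 genes with higher and 1 with a lower mean and a median log2 fold change of 0.58. SIX3 of that list varied with PAX2 over the 6 shared libraries (Pearson r = 0.92 of log2(FPKM + 1), as a description). How much of the PAX2 signal comes from each tissue was not tested.

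PAX5 encodes a close relative of PAX2 that follows it at the isthmus. It had 1.25, 0.395 and 0.317 FPKM in ZnO 1, 2 and 3, against 0.695, 0.542 and 0.425 FPKM in control 1, 2 and 3. ZnO 1 stood above every other library, and ZnO 2 and ZnO 3 were below every control. In reads these are 144, 47 and 37 in ZnO 1, 2 and 3, against 80, 62 and 53 in control 1, 2 and 3. The exact 95% Poisson interval was 121.4 to 169.5 reads in ZnO 1 and 26.1 to 51.0 in ZnO 3, and these intervals cover counting error only. It was 34.5 to 62.5 reads in ZnO 2 and 39.7 to 69.3 in control 3. The intervals of ZnO 2 and ZnO 3 thus overlapped that of control 3. The mean of PAX5 was under the filter of 1 FPKM, so it was not among the genes tested. Its log2 difference was 0.05, and -0.19 without ZnO 1. With no filter on low values limma gave an adjusted p of 0.981.

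The RefSeq table places PAX5 on the Z chromosome, of which male birds carry a pair. As a measure of sex, which the labels do not give, 35 genes of the female W chromosome were summed. The sums were 707, 1100 and 876 FPKM in ZnO 1, 2 and 3, against 821, 425 and 1190 FPKM in control 1, 2 and 3. ZnO 1, the library highest in PAX5, had the lowest sum of the treated libraries, and control 2 had the lowest of all 6. The part of sex in the PAX5 levels was not tested. The log2 ratio of PAX2 to PAX5, on FPKM + 1, was 2.50, 3.41 and 3.08 in ZnO 1, 2 and 3, against 2.31, 2.46 and 3.07 in control 1, 2 and 3. With PAX5 this low, the added 1 shrinks the ratio. The plain FPKM ratio was 9.34, 35.1 and 32.1 in ZnO 1, 2 and 3, against 10.7, 13.8 and 25.8 in control 1, 2 and 3. The mean log2 ratio was 0.38 higher in treated embryos, with overlapping groups (exact permutation test, p = 0.2, adjusted p = 0.6, n = 3 each). With 0.5 or 0.1 added in place of 1, the difference was 0.41 or 0.46 (same test, unadjusted p = 0.4 or 0.6).

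GBX2 encodes the homeodomain factor of the anterior hindbrain that sets the rear side of the isthmus, and it is also made in other ectoderm and near the tail bud. It had 35.4, 73.7 and 51.7 FPKM in ZnO 1, 2 and 3, against 39.9, 38.9 and 65.5 FPKM in control 1, 2 and 3. ZnO 2 and control 3 were high, and ZnO 1, control 1 and control 2 were low, so both groups held high and low libraries. The log2 fold change was 0.13 ± 0.30 SE, with an interval of -0.56 to 0.83 (limma, adjusted p = 0.978). It was -0.12 without ZnO 2. The highest library was 2.08-fold above the lowest, and each had 1040 or more GBX2 reads. With sample weights, which give each library its own weight in the fit, the log2 fold change was 0.52 (limma, adjusted p = 0.233).

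The low GBX2 libraries were those low on the first principal component, whose order from low to high was ZnO 1, control 2, control 1, control 3, ZnO 2 and ZnO 3. Markers of the tail and caudal neural tube varied too, with sums of 92.9, 137 and 209 FPKM in ZnO 1, 2 and 3, against 131, 134 and 179 FPKM in control 1, 2 and 3. Of these 9 genes, 5 had higher and 4 lower means in treated embryos, with 0 past the threshold. HOXC9, a gene of the trunk, had the lowest adjusted p among them (log2 fold change -1.21 ± 0.20 SE, limma, adjusted p = 0.606). The part of the caudal tissues in the GBX2 level was not tested.

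OTX2, the forebrain and midbrain partner of GBX2 at the border, had 18.0, 24.1 and 15.8 FPKM in ZnO 1, 2 and 3, against 15.8, 9.59 and 21.8 FPKM in control 1, 2 and 3. ZnO 2 was highest and control 2 lowest, and the log2 fold change was 0.32 ± 0.29 SE (limma, adjusted p = 0.962). The log2 ratio of GBX2 to OTX2 was 0.94, 1.57 and 1.65 in ZnO 1, 2 and 3, against 1.28, 1.92 and 1.54 in control 1, 2 and 3. GBX2 was the more abundant in all 6 libraries. The mean ratio differed by -0.19 (exact permutation test, p = 0.7, adjusted p = 0.7, n = 3 each) and by 0.03 without ZnO 1.

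**Figure D2:**
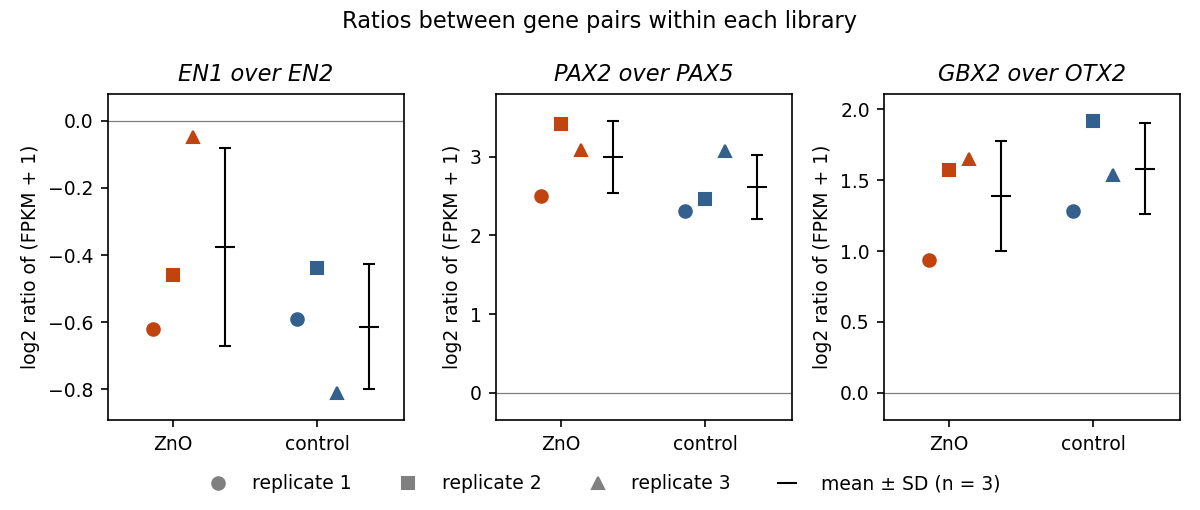
Log2 ratio of (FPKM + 1) between EN1 and EN2, PAX2 and PAX5, and GBX2 and OTX2 in each ZnO and control library, with the mean ± SD of 3 libraries as bars and a grey line at 0, where both genes are equal. The groups overlap for each pair, and GBX2 exceeds OTX2 in all 6 libraries.

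The signals of the isthmus and of the rhombomeres are FGF and WNT ligands, and 5 of the 7 listed were measured and tested. Of these 5, 3 had higher and 2 lower means in treated embryos and 0 passed. FGF8, the main organising signal, had 42, 33.2 and 27.5 FPKM in ZnO 1, 2 and 3, against 23.7, 34.3 and 29.0 FPKM in control 1, 2 and 3. ZnO 1 was highest and control 1 lowest, and the groups overlapped (log2 fold change 0.23 ± 0.21 SE, limma, adjusted p = 0.965). WNT1, made in a band in front of FGF8 and along the dorsal midline, had 16.2, 8.26 and 8.25 FPKM in ZnO 1, 2 and 3, against 11.4, 14.2 and 6.48 FPKM in control 1, 2 and 3. Its log2 fold change was 0.02 ± 0.32 SE (limma, adjusted p = 0.992).

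FGF18, a relative of FGF8 that is also made near the isthmus, was the 1 signal whose groups did not overlap. It had 7.99, 6.94 and 8.71 FPKM in ZnO 1, 2 and 3, against 11.8, 13.6 and 9.18 FPKM in control 1, 2 and 3. Every treated library was below every control, which held for 5.89% of all genes tested. The log2 fold change was -0.49 ± 0.17 SE (limma, adjusted p = 0.828). FGF19 had overlapping groups and a log2 fold change of -0.29 ± 0.22 SE (limma, adjusted p = 0.962).

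Targets and feedback inhibitors of FGF signalling lay in both directions. Of 9 tested, 3 had higher and 6 lower means in treated embryos and 0 passed, with a median log2 fold change of -0.07. Groups were apart for 0 of the 9, beside 11.5% of all genes tested. SPRY1, a Sprouty inhibitor, averaged 19.4 ± 2.09 FPKM in treated embryos and 20.4 ± 1.64 FPKM in controls (SD, n = 3 each), with a log2 fold change of -0.07 (interval -0.41 to 0.26). Its relative SPRY2 had a log2 fold change of -0.19 (interval -0.53 to 0.14), DUSP6, a phosphatase of the ERK kinases, -0.15 (interval -0.51 to 0.20), and SPRY4 0.41 (interval -0.15 to 0.98). CNPY1 was not analysed here. The part of the isthmus in the whole-embryo levels of FGF8, FGF18 and these targets was not tested.

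Among the other transcription factors of midbrain and isthmus, 11 of 20 tested had higher and 9 lower means in treated embryos, with 0 past the threshold and a median log2 fold change of 0.11. All treated libraries were above all controls for 4 of the 20, a relation found for 5.6% of all genes tested. LMX1B, a LIM homeodomain factor that maintains WNT1 and FGF8 at the isthmus, had 3.76, 6.99 and 5.11 FPKM in ZnO 1, 2 and 3, against 2.40, 1.92 and 2.25 FPKM in control 1, 2 and 3. The lowest treated library was above the highest control, and the log2 fold change was 0.95 ± 0.21 SE with an interval of 0.47 to 1.43 (limma, unadjusted p = 0.00176, adjusted p = 0.746). Its adjusted p was 0.0331 with sample weights and ran from there to 1.0 over 16 alternatives, of which 1 called it. LMX1B had 51 to 193 reads per library.

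SP8, a zinc finger factor that takes part in FGF8 control at the isthmus, had 13.2, 10.3 and 9.66 FPKM in ZnO 1, 2 and 3, against 4.12, 6.38 and 6.62 FPKM in control 1, 2 and 3. The groups did not overlap, and the log2 fold change was 0.86 ± 0.20 SE (limma, adjusted p = 0.746). DMBX1, a homeobox gene of the midbrain, had 2.47, 2.09 and 2.28 FPKM in ZnO 1, 2 and 3, against 1.32, 1.12 and 1.66 FPKM in control 1, 2 and 3 (log2 fold change 0.47 ± 0.16 SE, limma, adjusted p = 0.827). The fourth was FOXB1, named after its values were seen, with a log2 fold change of 0.25 ± 0.13 SE (limma, adjusted p = 0.943). None of these reached the threshold, although their groups were apart.

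SP8 is also a gene of the forebrain, and the forebrain and eye field list had the highest median of the lists counted, at 0.58. Of its 10 genes tested, 0 passed the adjusted test. At an unadjusted p under 0.05 there were 6 with higher means, beside 3.06% of all genes tested, and 3 had all treated libraries above all controls, beside 5.6%. The list summed to 131, 113 and 81.3 FPKM in ZnO 1, 2 and 3, against 59.8, 51.6 and 83.5 FPKM in control 1, 2 and 3. LHX2, a LIM homeodomain gene of the eye field and forebrain, had 2.54, 2.93 and 2.22 FPKM in ZnO 1, 2 and 3, against 1.06, 0.531 and 1.57 FPKM in control 1, 2 and 3 (log2 fold change 0.82 ± 0.22 SE, limma, adjusted p = 0.801). SIX3, a homeobox gene of the anterior forebrain, had 46.0, 44.7 and 29.9 FPKM in ZnO 1, 2 and 3, against 19.6, 13.0 and 28.8 FPKM in control 1, 2 and 3 (log2 fold change 0.98 ± 0.29 SE, limma, adjusted p = 0.801). The groups were apart for both, though ZnO 3 and control 3 were close in SIX3. RAX, a gene of the eye field, had groups that overlapped, with 18.3, 14.2 and 8.80 FPKM in ZnO 1, 2 and 3, against 6.21, 7.04 and 9.20 FPKM in control 1, 2 and 3 (log2 fold change 0.76 ± 0.26 SE, limma, adjusted p = 0.827). ZnO 3, lowest in EN1 and EN2, was also the treated library with the lowest sum of this list. Control 1 and control 2 had lower sums than ZnO 3 but higher EN1 and EN2. The part of forebrain tissue in the SP8 level was not tested.

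In the hindbrain list, 6 of 19 genes tested had higher and 13 lower means in treated embryos, with 0 past the threshold and a median log2 fold change of -0.19. All treated libraries were above all controls for 1 gene and below for 6, relations found for 5.6% and 5.89% of all genes tested. The gene with treated libraries above was EFNB2, an ephrin of rhombomeres and vessels, named after its values were seen. It had 23.7, 18.4 and 18.1 FPKM in ZnO 1, 2 and 3, against 15.5, 12.9 and 14.3 FPKM in control 1, 2 and 3 (log2 fold change 0.46 ± 0.16 SE, limma, adjusted p = 0.827).

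The 6 hindbrain genes with treated libraries below all controls, a relation that 5.89% of all genes tested showed, were HOX genes of the anterior groups, and 0 of them passed the adjusted test. Of the 10 HOX genes in the list, a subset taken after the values were seen, 9 had lower means, beside 7464 of all 13311 genes tested. The count was 9 under each scaling between libraries, 10 without ZnO 3 and 8 without ZnO 1 and control 2. HOXB2, a target of EGR2 in mouse rhombomeres, had 5.35, 4.43 and 4.93 FPKM in ZnO 1, 2 and 3, against 8.35, 8.90 and 6.72 FPKM in control 1, 2 and 3. Its log2 fold change was -0.60 ± 0.15 SE (limma, adjusted p = 0.782). HOXA2, the HOX gene that reaches furthest forward, had 48.6, 50.8 and 39.4 FPKM in ZnO 1, 2 and 3, against 63.7, 65.0 and 51.1 FPKM in control 1, 2 and 3 (log2 fold change -0.37 ± 0.17 SE, limma, adjusted p = 0.900). HOXB1, a gene of rhombomere 4, had a log2 fold change of -0.26 ± 0.15 SE, and HOXA4, of the caudal hindbrain, -0.55 ± 0.16 SE (limma, adjusted p = 0.943 and 0.801). HOX genes are also made along the whole trunk. The trunk genes HOXB8, HOXA9 and HOXC9 had lower means too, with log2 fold changes of -0.44, -0.59 and -1.21. So did the somite genes MEOX1 and TCF15, at -0.60 and -0.57. In the tail and caudal list that holds these trunk genes, 5 of 9 genes had higher means, with a median log2 fold change of 0.08. These 5 were CDX2, TBXT, MSGN1, TBX6 and NKX1-2, with log2 fold changes of 0.08, 0.28, 0.32, 0.48 and 1.02. The part of hindbrain cells and of trunk tissue in these levels was not tested.

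NAB1 and NAB2, co-repressors that bind EGR proteins, had log2 fold changes of 0.04 (interval -0.41 to 0.50) and -0.19 (interval -0.57 to 0.19). EPHA4, an ephrin receptor gene that EGR2 activates in rhombomeres 3 and 5 of the mouse, had 33.9, 22.2 and 21.4 FPKM in ZnO 1, 2 and 3, against 21.4, 26.3 and 17.8 FPKM in control 1, 2 and 3. ZnO 1 was the highest library and the groups overlapped (log2 fold change 0.22 ± 0.22 SE, limma, adjusted p = 0.974).

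**Figure D3:**
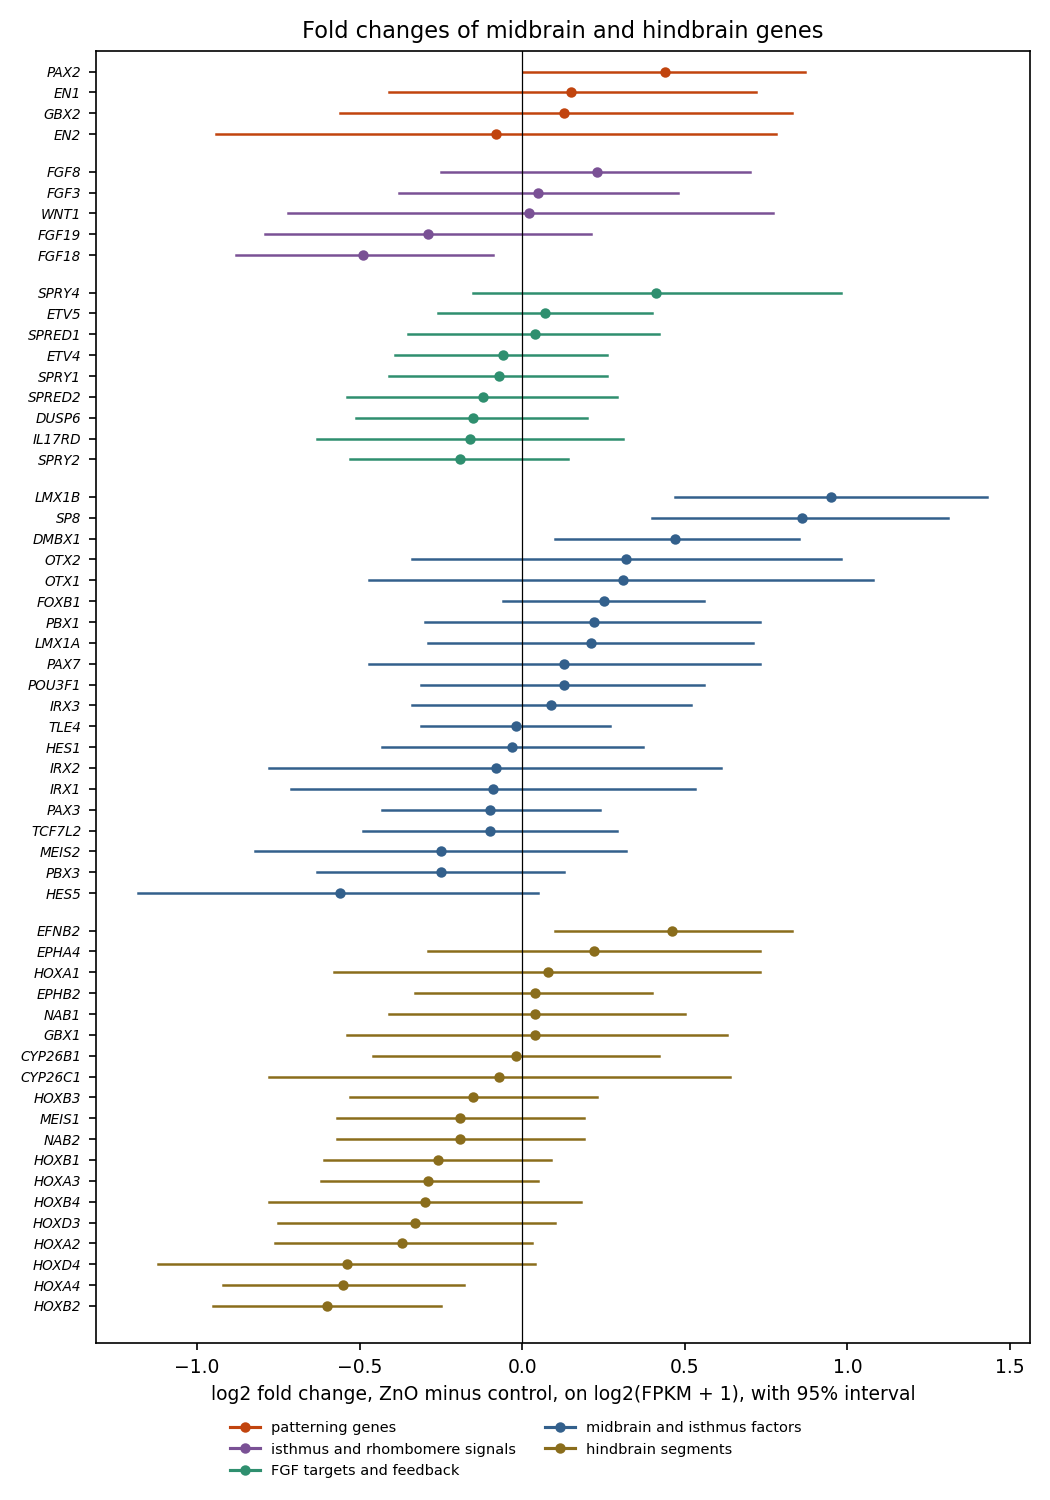
Difference of mean log2(FPKM + 1) between ZnO and control libraries (log2 fold change) with its unadjusted 95% interval from limma, for the 4 patterning genes tested and the 53 other genes of 4 midbrain and hindbrain lists, in order of size within each list. Intervals of PAX2, LMX1B, SP8, DMBX1 and EFNB2 lie above 0, that of PAX2 from 0.002, and those of FGF18, HOXA4 and HOXB2 below 0, while 0 genes had an adjusted p under 0.05.

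Over the 4 lists together, 53 of 62 listed genes were tested, 23 with higher and 30 with lower means in treated embryos and a median log2 fold change of -0.06, beside -0.03 for all genes tested. At an unadjusted p under 0.05 there were 4 higher and 3 lower, beside 3.06% and 2.61% of all genes tested. Without ZnO 1 and control 2, the libraries lowest on the first principal component, these counts were 2 higher and 6 lower, and those over all genes tested were 581 higher and 781 lower. The groups were apart for 12 genes, 5 above and 7 below the controls, beside 5.6% and 5.89% of all genes tested.

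Across the 6 libraries, which all pairs share, the Engrailed pair had the highest correlation between members (Pearson r = 0.94 of log2(FPKM + 1)), given as a description, as the map of deviations shows. The other pairs of members ran from -0.73 for PAX5 and GBX2 to 0.65 for EN1 and PAX5, with 0.63 for PAX2 and GBX2. The genes with the most similar pattern were sought among 8979 protein-coding genes that averaged 5 FPKM or more, by Pearson correlation of log2(FPKM + 1) over the 6 libraries, as a description only. With so many genes and so few libraries, high values are reached readily. For EN1 they were CSNK1G2 (r = 0.993), OTX1 (0.972) and LOC424918 (0.972), and for EN2 LOC424918 (0.981), NPY (0.970) and ACADS (0.962). OTX1, a gene of forebrain and midbrain, had 22.5, 15.3 and 8.16 FPKM in ZnO 1, 2 and 3, against 8.85, 10.9 and 14.9 FPKM in control 1, 2 and 3. Like EN1 and EN2 it was highest in ZnO 1 and lowest in ZnO 3, part of the likeness by which it was picked here.

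For PAX2 the most similar genes were FA2H (r = 0.985), NKX2-8 (0.984) and SOX21 (0.976). SOX21, a gene of neural progenitors, had 47.2, 52.2 and 41.5 FPKM in ZnO 1, 2 and 3, against 22.2, 23.1 and 43.1 FPKM in control 1, 2 and 3. Control 3 stood with the treated libraries, part of the likeness to PAX2 by which SOX21 was picked here. For PAX5 they were CSPG5 (r = 0.991), ALX4 (0.991) and MTFMT (0.990). For GBX2 they were MARCKSL1 (r = 0.997), DNAJA4 (0.990) and LOC107050614 (0.990).

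**Figure D4:**
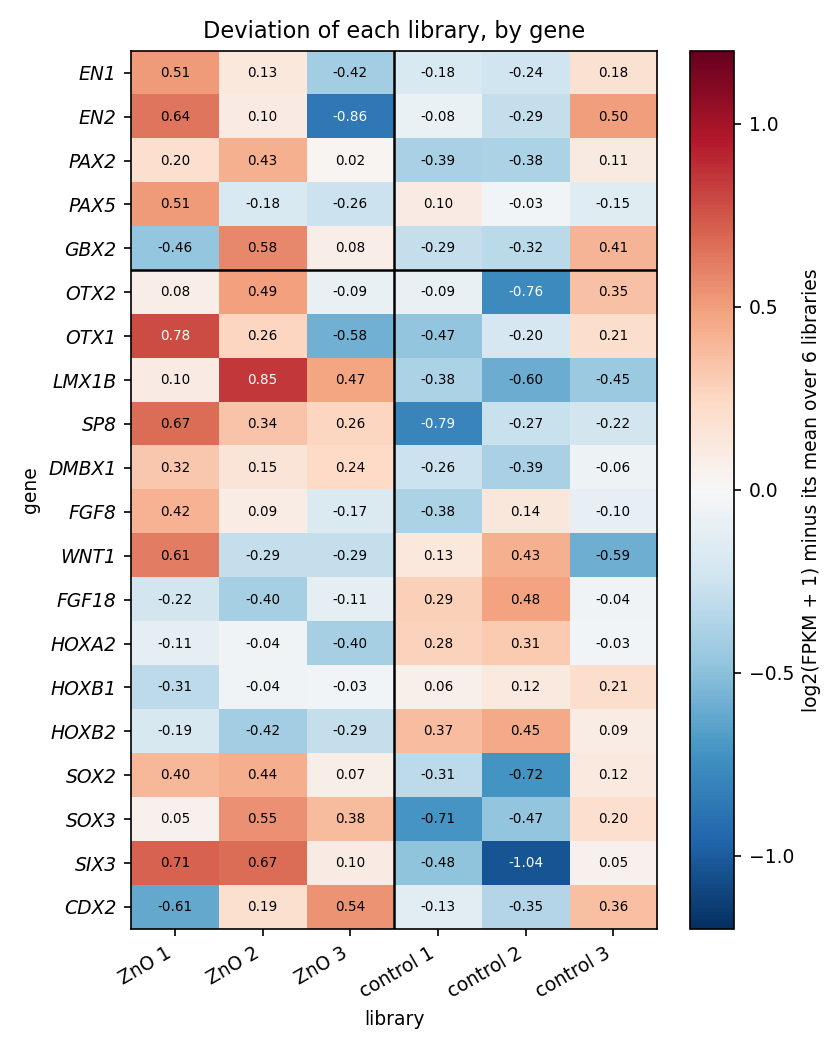
Log2(FPKM + 1) of each gene minus its mean over the 6 libraries, as numbers and colours (red above, blue below the mean), for the 5 patterning genes above the line and 15 related genes below it, with ZnO libraries left of the controls. EN1 and EN2 share their signs in every library, PAX2 is below its mean in control 1 and control 2 only, and GBX2 is lowest in ZnO 1 at -0.46.

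Other marker lists gave the setting of these values. Of 10 crest and early glia genes, 4 had higher and 6 lower means in treated embryos. They summed to 193 to 248 FPKM in treated embryos and 209 to 222 FPKM in controls. All treated libraries were below all controls for SNAI2 and above them for FOXD3, relations found for 5.89% and 5.6% of all genes tested. SNAI2 had a log2 fold change of -0.65 ± 0.14 SE (limma, unadjusted p = 0.00137, adjusted p = 0.746). That of FOXD3 was 0.40 ± 0.20 SE (limma, adjusted p = 0.929). Of 9 immediate early genes, which include relatives of EGR2, 7 were higher and 2 lower, with sums of 151 to 216 FPKM in treated embryos and 170 to 190 FPKM in controls. EGR3 and EGR1 had log2 fold changes of 0.41 ± 0.21 SE and 0.47 ± 0.26 SE (limma, adjusted p = 0.939 and 0.943). Of 12 somite, heart and blood genes, 4 were higher and 8 lower, with sums of 1060 to 2070 FPKM in treated embryos and 1410 to 1620 FPKM in controls. MEOX1 and TCF15 of the somites and NKX2-5 of the heart, 3 of these 12, had an unadjusted p under 0.05 and all treated libraries below all controls, beside 2.61% and 5.89% of all genes tested. The log2 fold change of NKX2-5 was -0.47 ± 0.15 SE (limma, adjusted p = 0.827). In these lists 0 genes passed the threshold.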

How the data were processed

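RNA was sequenced from 6 libraries of whole chicken embryos, 3 treated and 3 control. Per the labels' protocols, RNA was taken with Trizol and libraries were made with an Illumina TruSeq kit for paired-end reads. Per the submitters' processing notes, the tools were HTSeq 0.6.1, TopHat2 2.0.12 and Bowtie2 2.2.3, and the only build named is a mouse one, so no coordinates are given. No source used here says whether strand was counted, so overlapping genes on opposite strands cannot be told apart, nor can reads shared by close paralogs. The deposited values name no unit and behave as FPKM. They were whole multiples of a step, and the depths solved from it gave reads within 0.005 of a whole number for all 13311 genes tested, against 6 of 500 genes with wrong depths.

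Gene numbers were matched to symbols in the RefSeq table of assembly GRCg7b (19704 of 24098 genes). limma 3.58.1 in R 4.3.3 with a mean-variance trend was run on log2(FPKM + 1), a scale that understates changes of low genes, two-sided, for genes that averaged 1 FPKM or more. Fold changes are ZnO minus control, with a threshold of 0.05 on the adjusted p. The test was checked on simulated data. Alternatives were pseudocounts of 0.1 and 0.5, other filters and scalings, sample weights, a replicate block, voom on the recovered reads with trimmed-mean scaling, and leaving out libraries. Named genes were the members, set genes of each list and up to 3 per list with the smallest p. Of the set genes, 2 are not reported here and enter no list count. The members and lists were chosen with earlier results of these data known.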

Additional observations from a re-analysis of the deposited data

How the results depend on the processing

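The count of 0 genes called was 0 under every alternative except sample weights (47 genes), leaving out ZnO 1 (4 genes, the top of a range of 0 to 4 over single libraries left out) and leaving out ZnO 1 with control 2 (3 genes). An unadjusted p under 0.05 (limma) was found for 754 genes in the main fit and 2656 with sample weights. With 1 library left out, that count ran from 396 (without control 1) to 1948 (without ZnO 1). The weights were estimated gene by gene, because the default estimate did not converge. With 1 library left out, log2 fold changes ran from -0.07 to 0.40 for EN1, -0.43 to 0.33 for EN2, 0.33 to 0.60 for PAX2, -0.19 to 0.19 for PAX5 and -0.12 to 0.40 for GBX2, and the difference in the GBX2 to OTX2 ratio from -0.34 to 0.03. EN1 was -0.14 and EN2 -0.59 without ZnO 1 and control 2, an alternative added after the data were seen, as was the scaling to neural tube genes, under which EN1 was -0.13, EN2 -0.37, PAX5 -0.23 and GBX2 -0.15. EN2 was negative in the main fit too, at -0.08, so its sign did not change under these added alternatives. The cause of the changes of sign was not tested. The median log2 fold change of the isthmus signals was -0.28 with sample weights and ran from -0.27 to 0.19 with 1 library left out. That of the hindbrain list was -0.13 with libraries scaled to the same sum and ran from -0.23 to -0.10 with 1 library left out. PAX5, under the filter, was recomputed with other pseudocounts and libraries left out, and with no filter it was 0.05 (limma, adjusted p = 0.981). No member was called under any alternative run.

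The replicate numbers gave no clear sign of pairing. Deviations of same-numbered libraries correlated with r = -0.033, -0.365 and 0.407 for numbers 1, 2 and 3. Those of differently numbered libraries ran from -0.561 to 0.579. So few libraries cannot settle whether they were paired. With the replicate block 0 genes were called, and PAX2 had a log2 fold change of 0.44 (limma, adjusted p = 0.938). The ratios cannot reach 0.05 in an exact test of 3 against 3 libraries. Depth limits PAX5 most, with 37 to 144 reads per library.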
